A study of Mus musculus with 39 samples.

Results

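The report compares leukemic pre-B cell samples of the mouse in which the homeobox gene Hoxa9 was near background with those in which it was high. Among the 16 arrays labelled leukemic pre-B, of 39 arrays in all, log2 of the intensity of the brighter Hoxa9 probe set was taken, and arrays below 5 were called Hoxa9-low. This gave 3 Hoxa9-low leukemias, numbered 116, 117 and 154 in the titles, and 13 Hoxa9-high leukemias. The split was made on Hoxa9 itself, so the Hoxa9 values are a description and carry no test. The highest array inside the limit was 117 at 4.52, and the lowest outside it was leukemia 15 at 8.36.

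Cells had been sorted from bone marrow as B220+ CD43- IgM- IgD-, and the series title names the leukemias MLL-AF4. All 3 Hoxa9-low arrays and 8 Hoxa9-high arrays came from mice without pIpC in the description, while 5 Hoxa9-high arrays (A992, A1322, A1507, 270 and A46) came from mice whose leukemia followed treatment with pIpC, a synthetic RNA that induces interferon. The description of array 116 names pre-B cells of an Mll-AF4stop knock-in mouse and does not state leukemia, although its cell type label does, and no Cre line or strain is given for any group and no age for the leukemic mice. The normal comparison group was 8 arrays of pre-B cells from adult marrow with the same surface markers. Replicate labels name a different number for each leukemia, the labels do not say whether normal arrays came from separate mice, and the p-values therefore reflect only spread among these samples.

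MLL, Kmt2a in the mouse, methylates histones and maintains Hoxa transcription in blood stem cells, and fusions such as MLL-AF4 commonly hold the same genes active in leukemia. Hoxa9 binds DNA together with homeobox partners of the Meis and Pbx families. In infants with MLL-AF4 leukemia, cases with little HOXA expression are also known, which is the background for asking which other genes go with low Hoxa9.

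The promoters of Hoxa9, Hoxa10 and Meis1 are shown for orientation, with CG dinucleotides in capitals. They are RefSeq windows of build GRCm38.p6 on the minus strand, reaching from 250 bases before to 50 bases after the annotated transcript start: Hoxa9 at chr6:52227321-52227620, Hoxa10 at chr6:52234890-52235189 and Meis1 at chr11:19018920-19019219.
Hoxa9: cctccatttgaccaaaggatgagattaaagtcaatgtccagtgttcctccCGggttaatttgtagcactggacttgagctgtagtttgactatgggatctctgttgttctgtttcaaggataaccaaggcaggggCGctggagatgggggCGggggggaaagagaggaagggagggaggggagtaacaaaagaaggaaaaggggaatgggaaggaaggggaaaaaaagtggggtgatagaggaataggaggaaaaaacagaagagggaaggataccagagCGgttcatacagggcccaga
Hoxa10: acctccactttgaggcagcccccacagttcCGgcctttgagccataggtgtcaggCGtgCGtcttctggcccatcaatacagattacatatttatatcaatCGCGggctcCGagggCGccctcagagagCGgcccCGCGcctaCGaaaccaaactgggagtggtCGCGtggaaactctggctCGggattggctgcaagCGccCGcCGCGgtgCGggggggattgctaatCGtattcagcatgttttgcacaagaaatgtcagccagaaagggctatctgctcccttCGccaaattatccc
Meis1: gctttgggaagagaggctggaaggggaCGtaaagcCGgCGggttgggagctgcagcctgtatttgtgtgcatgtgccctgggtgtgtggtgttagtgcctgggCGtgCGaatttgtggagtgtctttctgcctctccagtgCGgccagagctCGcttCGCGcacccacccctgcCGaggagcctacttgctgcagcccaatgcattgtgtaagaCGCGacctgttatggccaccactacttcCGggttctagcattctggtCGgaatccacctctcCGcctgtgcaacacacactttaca

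The Hoxa9 window holds 4 CG dinucleotides, the Hoxa10 window 21 and the Meis1 window 15, against a median of 7 over 32851 promoter windows of the same length. A second Hoxa10 start, whose window lies at chr6:52240805-52241104, holds 12. The Meis-type core TGACAG and the Hox-Pbx-type element TGATTTAN, each searched on both strands, have no match in any of these windows. Over all windows 19.2% hold the first and 2.96% the second.

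B-lineage transcripts were abundant on the 3 Hoxa9-low arrays, as the sort gate implies, apart from Pax5, which was at 5.07 to 5.16 on them and 5.02 to 6.20 in normal pre-B cells. Ebf1, a B-lineage factor, was at 11.12, 10.95 and 11.33 on arrays 116, 117 and 154, and Cd79b, a signal chain of the B-cell receptor, at 12.22, 11.40 and 11.95, all in log2 intensity. Array medians over all probe sets lay between 6.36 and 6.76, and a level under 4.34, the 25th percentile of gene means, is treated as near background. A pair of Hoxa9-high arrays stood apart from the other leukemias. Leukemia 226 had 885 genes at least 1 log2 unit above and 282 at least that far below every other leukemia. Its upper quartile of gene levels was 8.72, against 9.20 to 9.41 on the other leukemias. The part of this narrower spread of levels in its counts was not tested. Leukemia 122 had 262 and 83 such genes, with Ebf1 at 7.27 and Cd79a at 7.0. The mean of 20 myeloid markers was also highest in 122, at 9.44, against 5.13 to 9.44 over the Hoxa9-high arrays. On 116, 117 and 154 it was 6.97, 7.41 and 4.95, with the granulocyte gene Mpo at 7.56, 6.86 and 3.67 and the macrophage receptor gene Csf1r at 8.42, 12.17 and 3.68. Fewer cells of a type and less RNA per cell cannot be told apart in such bulk samples.

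Hoxa9 lay at 3.78, 4.52 and 3.24 on arrays 116, 117 and 154, and at 8.36 to 11.24 on the Hoxa9-high arrays, with a median of 10.86. The other Hoxa9 probe set gave the same order of sets, at 4.27 to 4.40 on the low and 5.37 to 8.85 on the high arrays. In normal pre-B cells, which have shut the gene, the brighter probe set averaged 4.11 ± 0.50 (SD, n = 8), so the 3 leukemias lay at the level of the normal cells. Normal pro-B cells, the stage before, were at 7.41 ± 0.55 (SD, n = 6).

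Other genes of the Hoxa cluster and Meis1 were mostly low where Hoxa9 was low, but each of them overlapped between the sets. Hoxa10, the 5' neighbour of Hoxa9 in the cluster, was at 4.09, 4.37 and 3.23 on 116, 117 and 154, and ranged from 4.26 to 10.84 on the high arrays, with a median of 9.82. The overlap comes from leukemia 17, a Hoxa9-high array with Hoxa10 at 4.26, and A46 followed at 4.89. The low-minus-high difference was -4.69 (SE 1.21, 95% interval -7.24 to -2.15, limma adjusted p = 0.618), and since the low mean of 3.90 is near background the size of the fold is not resolved. Leukemias 17 and A46 also had the lowest Kmt2a values, 6.44 and 6.52, against 9.92 to 10.26 on the 3 low arrays. Both were lowest in other genes too, such as the glucose transporter gene Slc2a3 (3.02 and 5.44) and Aff4 (4.21 and 4.81). A link of Kmt2a to Hoxa10 on these arrays was not tested.

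Accessions of the series form 2 consecutive runs, a split that no label explains, and the first run holds all 3 low and 9 of the 13 high arrays but neither 17 nor A46. Within it the Hoxa10 difference was -5.73 (SE 0.69), with a limma adjusted p of 0.0161 and no overlap of arrays. Hoxa10 was the 1 gene called there, of 12392 tested (0.00807%).

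Hoxa5, Hoxa3 and Hoxa7, which lie further toward the 3' end of the cluster, had a moderate signal on array 154. There Hoxa5 lay inside the normal pre-B range of 4.53 to 7.27. Hoxa3 and Hoxa7 lay above the highest normal arrays, at 7.38 and 5.90. Hoxa5 was at 4.63, 5.85 and 6.48 on 116, 117 and 154, against 5.39 to 9.68 with a median of 7.89 on the high arrays. Hoxa3 was at 5.71, 6.42 and 7.98, against 5.74 to 9.44 with a median of 8.78. The lowest Hoxa5 and Hoxa3 values among the high arrays were both those of leukemia 15, the array with the lowest Hoxa9 of its set. Hoxa7 differed less, at 5.44, 5.89 and 6.59 against 5.58 to 8.28. The differences were -1.99 (SE 0.63) for Hoxa5, -1.75 (SE 0.58) for Hoxa3 and -0.94 (SE 0.53) for Hoxa7, each with a limma adjusted p of 1.0. Within the first run they were -1.89, -1.94 and -0.70, again not called.

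Hoxa2 and Hoxa4 averaged 3.73 and 3.90 on the low arrays and 4.72 and 4.99 on the high arrays, and Hoxa11 and Hoxa13 were under 4.34 on average in both sets. Of the 11 Hoxa and neighbouring genes listed, Hoxa9 not among them, 9 were measured, and 6 of the 9 had a lower and 3 a higher mean in the low set. Their median difference was -1.0, and -0.76 within the first run, beside -0.01 over all genes. Among 22 measured genes of the other Hox clusters the median was 0.07, with 16 higher and 6 lower.

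Meis1, the partner that binds DNA with Hoxa9, was at 2.86, 3.03 and 4.24 on 116, 117 and 154 and between 2.90 and 6.98 on the high arrays, with a median of 6.09. Leukemia A1507 supplied the 2.90, while its Hoxa9 was at 10.65, so high Hoxa9 stood there beside Meis1 near background. The difference was -2.29 (SE 0.65, 95% interval -3.65 to -0.93, limma adjusted p = 0.76), with the low mean of 3.37 near background. Pbx3, another partner, had a higher mean in the low set, at 6.49, 4.84 and 4.05 on 116, 117 and 154. The high arrays spanned 3.39 to 5.21 with a median of 3.92, so only 116 lay above them. Its difference was 1.06 (SE 0.42, limma adjusted p = 1.0), with the high mean of 4.07 near background. Over the 8 Hox cofactors measured the median was -0.07, with 4 higher and 4 lower.

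**Figure D1:**
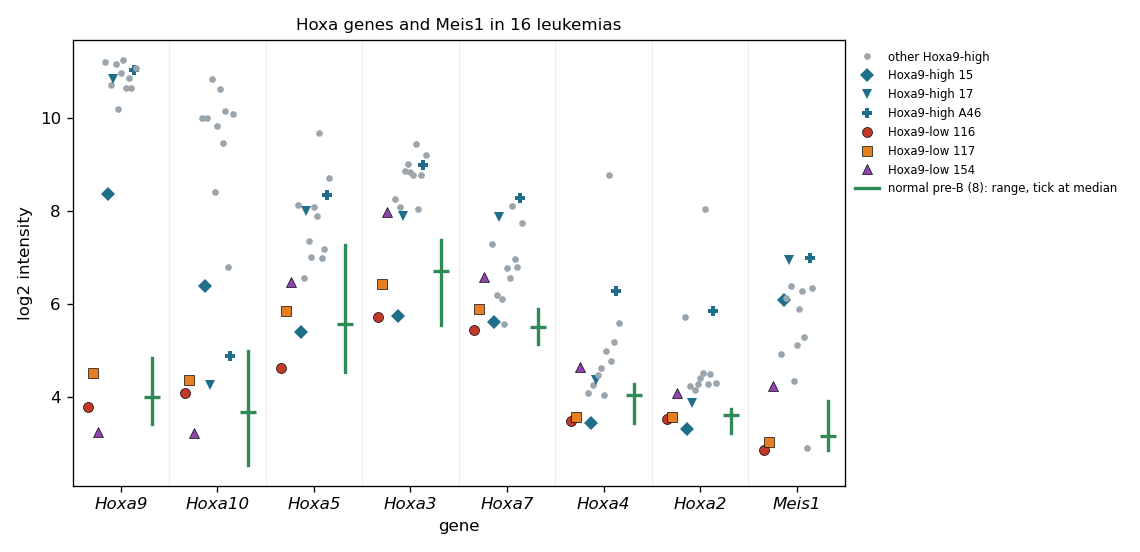
Log2 intensity (y axis) of Hoxa9, 6 further Hoxa genes and Meis1 (x axis) on each leukemia array, with coloured, outlined symbols for the 3 Hoxa9-low arrays, grey points for Hoxa9-high arrays, separate blue symbols for Hoxa9-high arrays 15, 17 and A46, and a green line for the range of 8 normal pre-B arrays with a tick at their median. Hoxa10 is low on 17 and A46 although their Hoxa9 is high, and Hoxa5 and Hoxa3 on leukemia 15 lie among the Hoxa9-low arrays.

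Irx1, a homeobox gene that some human MLL-AF4 cases with low HOXA express, was near background on every leukemia, at 2.86 to 2.98 on the low and 2.63 to 3.18 on the high arrays. Egr1, an immediate early factor, was at 10.38, 11.55 and 9.70 against a median of 9.93, a difference of 0.53 (SE 0.64). Of the 10 Irx and Egr genes, 6 were higher and 4 lower, with a median of 0.03.

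Across the whole transcriptome the sets were not separated by any gene that passed the test. limma called 0 of 12392 genes (0.0%) at an adjusted p under 0.05, and the smallest adjusted p was 0.369. At an unadjusted p under 0.05 there were 406 genes (3.28%), 228 higher (1.84%) and 178 lower (1.44%) in the low set. This share is below the 0.05 that the threshold allows by chance alone. Group means were at least 2-fold apart for 382 genes, 204 higher and 178 lower with a median SE of 0.28 over all genes. With all 39 arrays in 1 fit, which takes the spread also from normal cells, 43 genes were called, 19 higher and 24 lower, among them Hoxa10, Meis1, Spint2, Synj2, Gadd45a, Runx1, Larp1 and Tom1l1.

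**Figure D2:**
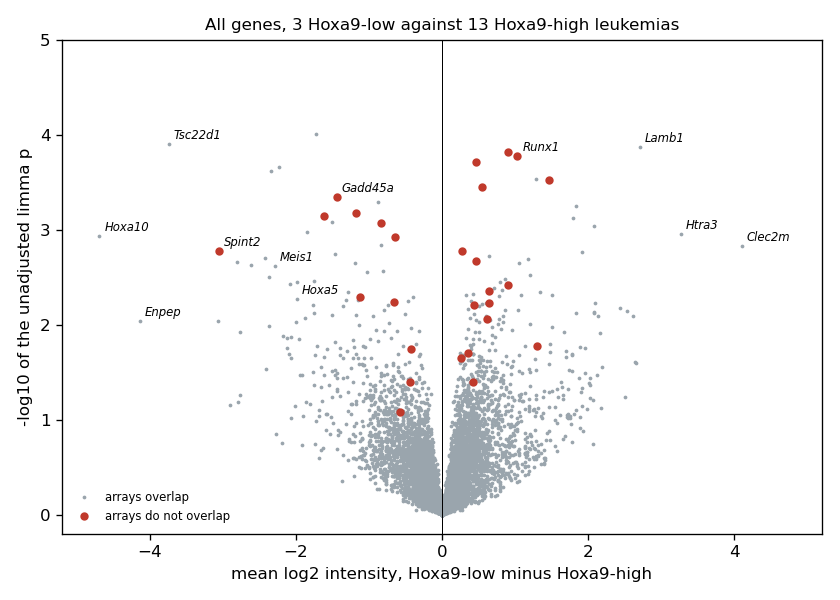
Difference of mean log2 intensity, Hoxa9-low minus Hoxa9-high (x axis), against -log10 of the unadjusted limma p (y axis) for all 12392 genes. Red points are the 27 genes whose arrays do not overlap, and the genes with the largest differences, such as Hoxa10, Enpep and Clec2m, are grey because their arrays overlap.

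Whole-transcriptome distances gave no closer grouping of the low arrays. The median absolute difference between arrays over genes was 0.250 to 0.350 in the 3 pairs of low arrays. Pairs of a low and a high array had a median of 0.335, ranging from 0.244 to 0.769, and pairs of high arrays a median of 0.372, ranging from 0.219 to 0.883. The leukemia nearest to 116 was 154, but the nearest to 154 was the Hoxa9-high A1322 and the nearest to 117 the Hoxa9-high 153.

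The low and high arrays did not overlap for 27 genes (0.218%), 16 higher (0.129%) and 11 lower (0.0888%) in the low set. Any split of 3 against 13 arrays separates some genes by chance, and the count was not set against other splits. Separation alone therefore does not tie a gene to Hoxa9. None of these genes was called, so their values are given as levels. The gene with the largest such difference was Spint2, a membrane-bound inhibitor of serine proteases. It was at 4.05, 5.69 and 5.73 on 116, 117 and 154 and from 5.80 to 10.50 on the high arrays, with a median of 8.16. The highest low and the lowest high array nearly touched, while the mean difference was -3.05 (SE 0.82, limma adjusted p = 0.73), and its second probe set gave -2.73. Normal pre-B cells had a median of 7.26, between the sets.

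Gadd45a, a stress and p53 target gene that slows the cell cycle, was at 7.62, 7.87 and 8.21, against 8.25 to 10.25 on the high arrays, whose median was 9.54. The difference was -1.44 (SE 0.33, 95% interval -2.14 to -0.73, limma adjusted p = 0.465). All 3 low arrays, and the high arrays too, lay below the 10.37 to 11.15 of normal pre-B cells, so Gadd45a was graded from normal to Hoxa9-high to Hoxa9-low. Synj2, an inositol phosphatase, was at 4.48, 4.58 and 4.88 against 5.05 to 7.10 (difference -1.62, SE 0.40, limma adjusted p = 0.541).

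Fkbp5, a cochaperone of the glucocorticoid receptor that glucocorticoids induce, was at 8.83, 8.57 and 9.08 against 9.12 to 10.06 (difference -0.83, SE 0.21, limma adjusted p = 0.547), with normal pre-B cells lower still at 7.58 to 8.67. Bloc1s5, a subunit of a complex for lysosome-related organelles, averaged 7.58 ± 0.15 (SD, n = 3) against 8.75 ± 0.47 (SD, n = 13). The homeobox gene Cux1 averaged 9.75 ± 0.16 against 10.39 ± 0.25. The remaining separated genes with lower levels that the naming rule picked were Rab3ip, Sntb2, Tnrc6b and Slc22a12, with differences between -1.12 and -0.43.

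Runx1, the core binding factor needed for blood stem cells and early B cells, was among the genes with higher levels. It was at 11.70, 11.88 and 10.97 on 116, 117 and 154, and the highest of the high arrays reached 10.96, with a median of 10.41. The difference was 1.03 (SE 0.22, 95% interval 0.57 to 1.48, limma adjusted p = 0.369), and its 4 other probe sets gave 1.11 to 1.28. Array 154 thus touched the high set, whereas 116 and 117 lay clear of it, and normal pre-B cells spanned 10.39 to 10.84.

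Dleu2, the noncoding host transcript of tumour-suppressive microRNAs, was tight on the low arrays at 9.81, 9.95 and 10.06, against 6.22 to 9.77 on the high arrays, whose median was 8.70 (difference 1.30, SE 0.49, limma adjusted p = 1.0). Normal pre-B cells were at 9.49 to 10.55, so the low leukemias sat at the normal level. Zeb2, a zinc-finger repressor of transcription, was at 8.82, 8.41 and 8.32 against 6.90 to 8.15 (difference 0.90, SE 0.27, limma adjusted p = 0.951), with normal pre-B cells at 8.70 to 9.12. Here too the low arrays were the nearer set to the normal cells.

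Larp1, which binds messenger RNAs of ribosomal proteins, averaged 11.85 ± 0.10 (SD, n = 3) against 11.38 ± 0.14 (SD, n = 13), a difference of 0.47 (SE 0.10, limma adjusted p = 0.369), with normal cells at a median of 10.80. Tom1l1, an adaptor of membrane traffic and Src kinases, was at 5.95, 7.81 and 6.39 against 4.50 to 5.90 (difference 1.46, SE 0.33, limma adjusted p = 0.369). The kinase gene Nlk, the mitochondrial genes Fastkd1 and Rhot1, and Kbtbd2 and Cdsn had differences between 0.47 and 0.91. Cdsn averaged 4.43 in the low and 3.53 in the high set, which is near background.

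**Figure D3:**
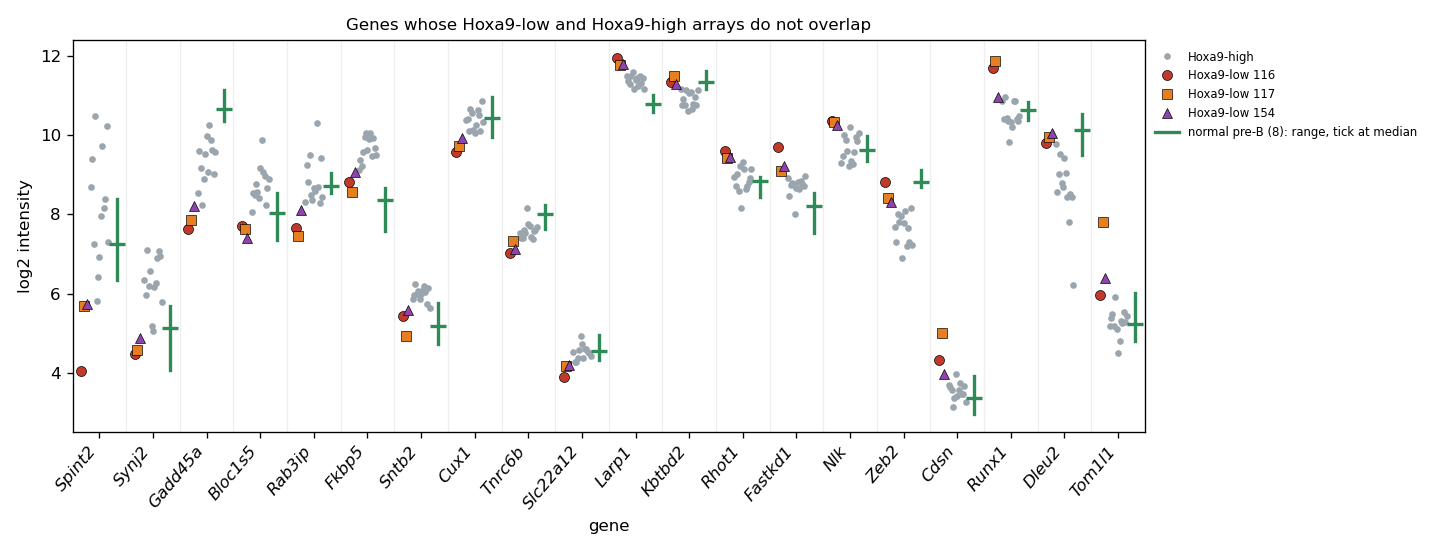
Log2 intensity (y axis) of the 20 named genes whose Hoxa9-low and Hoxa9-high arrays do not overlap (x axis, ordered by the difference), with outlined symbols for the 3 low arrays, grey points for the 13 high arrays and a green line for the range of normal pre-B arrays with a tick at the median. Spint2 and Gadd45a spread widely in the high set, and Runx1 on array 154 lies at 10.97, just above the highest Hoxa9-high array.

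Further genes were called when a single leukemia was left out. Without 117, limma called 1 gene, Tsc22d1, a leucine zipper factor of the TGF-beta response. It was at 4.08 on 116 and 3.98 on 154, both near background, but at 9.18 on 117, within the 8.35 to 10.56 of the high arrays and close to the normal pre-B median of 9.02. Without 117 the difference was -5.46 (SE 0.50, limma adjusted p = 6.62e-05), and with it -3.74 (SE 0.76, limma adjusted p = 0.369). Of its 5 other probe sets, 2 gave -3.64 and -3.35, and the others -0.73, 0.67 and -0.20.

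Without Hoxa9-high leukemia 122, the array with weak B-lineage transcripts, 6 genes were called, all lower in the low set. They include the receptor for the B-cell survival factor BAFF and other surface molecules of B cells. Tnfrsf13c, the BAFF receptor, was at 7.20, 9.34 and 7.93 on 116, 117 and 154 against 8.13 to 11.40 on all high arrays, whose median was 10.60. Cd1d1, which presents lipids to NKT cells, was at 6.33, 8.74 and 8.35 against 7.91 to 11.10, with a median of 10.24. Both lay under the lowest normal pre-B array, at 10.66 and 9.96, on all 3 low arrays. The same held on 9 of the 13 high arrays for Tnfrsf13c and on 4 for Cd1d1.

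Without 122 the differences were -2.42 (SE 0.33, limma adjusted p = 0.0144) for Tnfrsf13c and -2.52 (SE 0.37, limma adjusted p = 0.0207) for Cd1d1. With all arrays they were -2.23 and -2.34, and both genes had a limma adjusted p of 0.369. Celsr1, an adhesion cadherin, Ctnnal1, a catenin-like protein, Enpep, the aminopeptidase known as the BP-1 antigen of early B cells, and Trib2, a pseudokinase, were the others. Enpep varied most, at 2.80, 8.92 and 5.62 on the low arrays against a median of 10.66 on the high arrays and 8.95 in normal cells.

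Without 226 as well as 122, 5 genes were called: Tnfrsf13c, Cd1d1, Celsr1, Ctnnal1 and Phlpp1, a phosphatase that restrains Akt. Without 15 in addition 6 were called, with Ube2f as the further gene. Those joint exclusions were chosen after the data were seen. Ube2f, an enzyme of protein neddylation, was higher, at 10.10, 10.23 and 10.34 against 8.44 to 10.28.

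Without 154, 19 genes were called, 14 higher and 5 lower in 116 and 117 than in the high set. On 154 itself 11 of the 19 lay within the range of the high arrays. Htra3, a secreted serine protease, was at 9.67 and 8.56 on 116 and 117 but at 3.11 on 154, against 3.23 to 5.04 on the high arrays. Lamb1, a laminin chain of basement membranes, was at 8.60 and 7.44 but 4.22 on 154, against 3.21 to 4.70. Clec2m, a lectin-like protein, was at 11.49 and 9.18 but 2.93 on 154, against 3.04 to 6.17.

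Their differences without 154 were 5.27 (SE 0.46, limma adjusted p = 2.47e-05) for Htra3, 3.98 (SE 0.36, limma adjusted p = 2.47e-05) for Lamb1 and 6.56 (SE 0.70, limma adjusted p = 0.000196) for Clec2m. The means of the high set, 3.84, 4.04 and 3.77, are near background, so the sizes of these differences are not resolved. In normal pre-B cells the medians of these genes were 3.59, 5.07 and 3.44, so 116 and 117 also stood above the normal cells. The same 2 arrays exceeded the high arrays in Rab7b, a Rab GTPase of late endosomes, and in the tetraspanin Tspan12. Rab7b was at 11.28 and 10.23 against 5.90 on 154 and 5.47 to 9.65 on the high arrays, with a median of 6.18. Tspan12 was at 6.25 and 5.49 against 2.45 on 154 and 2.25 to 4.15 on the high arrays. Leukemia 122 supplied the highest high value of both genes.

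The 5 genes that were lower were Slain1, Pafah1b3, Rmnd5b, Crip1 and Cdkn2c. Cdkn2c, the CDK inhibitor p18 that is abundant in pre-B cells, was at 10.06 and 8.94 on 116 and 117, at 11.77 on 154, and at 10.20 to 11.99 on the high arrays (difference without 154 -2.04, SE 0.34, limma adjusted p = 0.0137). Slain1, a microtubule-associated protein, was at 6.36 and 7.24, at 10.89 on 154 and at 8.52 to 10.74 on the high arrays. The myeloid marker mean also set 116 and 117 (6.97 and 7.41) apart from 154 (4.95), with 7 of 20 markers higher and 13 lower in the low set as a whole, and its part in these differences was not tested.

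**Figure D4:**
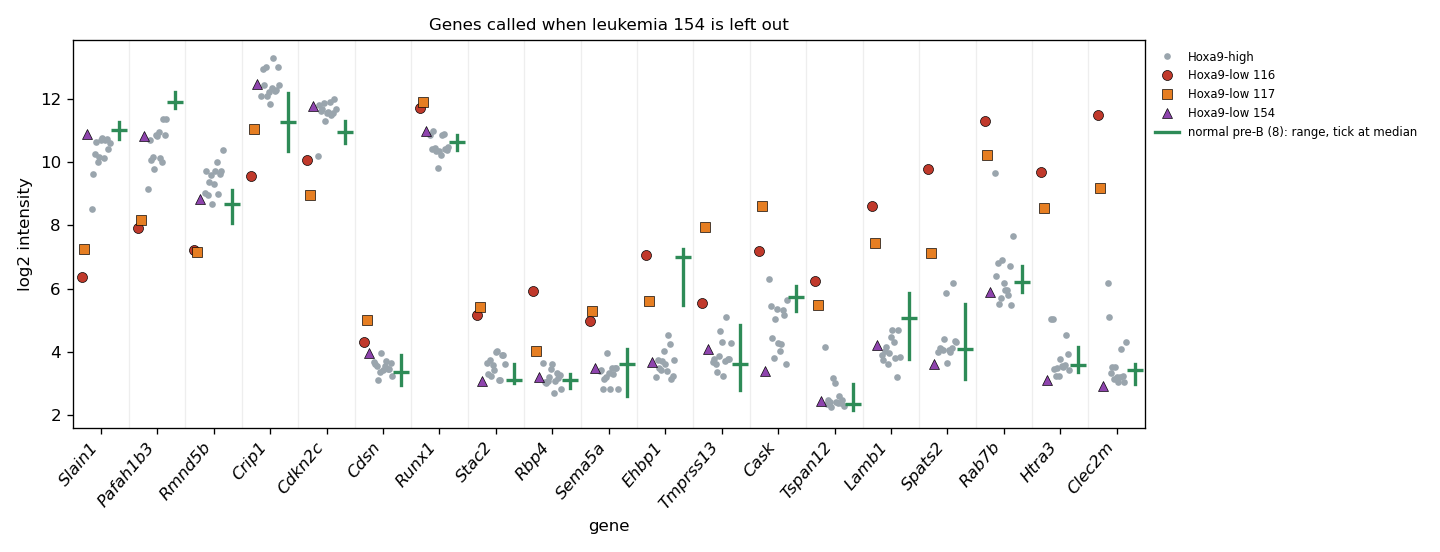
Log2 intensity (y axis) of the 19 genes called when leukemia 154 is left out (x axis, ordered by that difference), with the 3 Hoxa9-low arrays as outlined symbols, the 13 Hoxa9-high arrays as grey points and the range of 8 normal pre-B arrays as a green line with a tick at the median. The triangle of 154 sits with the grey points for genes such as Htra3 (3.11) and Clec2m (2.93), while 116 and 117 sit apart.

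Counted over all genes, 116 and 117 were both at least 1 log2 unit above every high array for 5 genes with 154 inside the high range (Ehbp1, Gpt2, Jun, Lamb1 and Tspan12), and both below for 2 (Rmnd5b and Zap70). For 116 and 154 with 117 inside, the counts were 1 and 3, the latter being the ETS factor gene Erg, Ndrg1 and Tsc22d1. For 117 and 154 with 116 inside, both counts were 0. Jun, an AP-1 factor, was at 11.19, 10.41 and 6.02 on 116, 117 and 154, against 4.99 to 8.73 on the high arrays and a normal pre-B median of 11.39.

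Each low leukemia also had genes of its own. Array 117 was at least 1 log2 unit above every other leukemia for 85 genes and below for 18, 116 for 31 and 34, and 154 for 9 and 18. Array 117 carried Nupr1, a stress-induced chromatin protein, at 12.74, where the next leukemia reached 8.88, and the epithelial splicing factor gene Esrp1 at 10.11, where the next reached 5.26. In 116 the neural zinc-finger gene Zic1 was at 9.20 and the pioneer factor gene Foxa1 at 5.56, with the next leukemia at 5.02 and 3.24. Array 154 had Fscn1, an actin-bundling protein, at 11.63 and Rnf43, a ubiquitin ligase for Wnt receptors, at 7.53, with the next at 9.29 and 5.03. These genes were chosen by the size of their gap in 1 array and have no replicate check.

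Genes tied to MLL leukemia, or named earlier on these data as leukemia genes, varied widely among the 3 low arrays. None was called between the sets. Flt3, a cytokine receptor often high in MLL leukemia, was at 6.06, 12.01 and 5.41 on 116, 117 and 154 against a median of 6.83 on the high arrays. Cdkn2a, the locus of p16 and p19, was at 9.12, 10.13 and 4.55 against 4.39 to 8.51 with a median of 5.55 (difference 2.19, SE 0.91, limma adjusted p = 1.0). Lhx2, a LIM homeobox factor, was at 7.91, 9.02 and 4.68 against a median of 8.46, and the zinc-finger factor gene Insm1 at 9.63, 7.92 and 4.65 against 8.04. In each of these 4 genes 154 lay lowest of the 3. Lhx2 and Insm1 were taken from the genes named earlier on these data.

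Other genes of these kinds had narrower ranges, among them Tmprss4, also named earlier on these data. Myc, which drives growth, was at 10.87, 10.83 and 10.28 against a median of 10.80 (difference 0.14, SE 0.42, 95% interval -0.75 to 1.04). The survival gene Bcl2 was at 5.83, 7.86 and 5.09 against 6.89 (difference -0.65, SE 0.74). Tmprss4, a membrane serine protease, was at 5.60, 3.99 and 6.04 against 7.30 (difference -2.12, SE 0.81, limma adjusted p = 1.0), and the kinase Cdk6 at 9.89, 7.86 and 8.25 against 7.41 (difference 0.92, SE 0.62). Aff1, the AF4 gene, differed by -0.17 (SE 0.18) and Kmt2a by 0.60 (SE 0.73), or -0.03 (SE 0.18) within the first run, which lacks 17 and A46. Of 28 measured MLL-fusion-associated genes 15 were higher and 13 lower, with a median of 0.03, and of 18 members of the MLL, DOT1L and elongation complexes 11 and 7, with 0.06. The 16 genes named earlier on these data as leukemia genes had a median of -0.37, with 8 higher and 8 lower.

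None of the gene lists had a called member, against 0.0% of all genes. Early B and surrogate light chain genes had a median of -0.22 (6 of 16 higher), B-lineage transcription factors -0.21 (6 of 18 higher), and B-cell receptor and surface genes 0.09 (12 of 20 higher). The surrogate light chain genes Vpreb1 and Igll1, which pair with the heavy chain in the pre-B receptor, differed by 0.18 (SE 0.59) and 0.16 (SE 0.74). Dntt, which adds nucleotides to V(D)J joins, was at 10.32 on 117 but 5.11 and 4.72 on 116 and 154, against 3.91 to 10.95 on the high arrays. Rag1, which cuts the immunoglobulin genes, differed by -0.02 (SE 0.85).

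Mature B and antigen presentation genes had a median of -0.45, with 4 of 19 higher, and homing and adhesion genes -0.42, with 5 of 20 higher. In the first list H2-Oa, a modulator of peptide loading, was at 4.73, 9.04 and 6.99 against 7.10 to 9.42, and in the second S1pr4, a sphingosine phosphate receptor, at 6.12, 8.20 and 7.93 against 7.70 to 9.23. In both lists 116 had the lowest list mean of the 3 arrays, 6.53 and 6.67. The BCL2 family had a median of -0.39, with 5 of 13 higher, where the survival gene Bcl2l1 was at 6.50, 8.43 and 9.02 against a median of 8.96.

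Interferon response genes had a median of 0.28, with 17 of 19 higher, but the list mean was 5.34, 8.42 and 6.98 on 116, 117 and 154 against 5.48 to 9.03 on the high arrays, so that 116 lay below all of them. Immediate early and stress genes had a median of 0.17, with 14 of 18 higher, and stem and progenitor genes 0.02, with 9 of 17 higher. In the stem cell list Tal1, a blood stem cell factor, was at 6.89, 7.74 and 3.96 against 3.14 to 5.98 (difference 2.09, SE 0.67, limma adjusted p = 1.0). Lists of growth and metabolism lay close to 0: cell cycle -0.03, G1 cyclins and CDK inhibitors -0.08, p53 targets -0.12, glycolysis -0.08, amino acid synthesis and ATF4 targets -0.10, ribosome biogenesis and Myc -0.01 and oxidative phosphorylation -0.08. Mki67, the proliferation marker, differed by -0.19 (SE 0.23, 95% interval -0.68 to 0.30).

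Marker lists of other cells had medians of -0.18 for 20 myeloid, -0.02 for 17 T and NK, -0.03 for 12 erythroid, -0.08 for 11 plasma cell, -0.19 for 10 plasmacytoid dendritic and -0.08 for 14 stromal and megakaryocyte markers. Array 117 had the highest mean of the 3 for the myeloid, T and NK, and dendritic lists, at 7.41, 6.38 and 8.34. Each lay inside the range of the high arrays. On 117 the T-cell receptor component Cd3e was at 8.69 and the cytotoxic granule gene Nkg7 at 9.40. They were at 5.25 and 5.75 on 116 and 6.12 and 6.10 on 154. The high arrays spanned 4.50 to 8.43 for Cd3e and 4.53 to 9.67 for Nkg7, and normal pre-B cells 4.77 to 6.55 and 7.84 to 9.05. Cd3g, a further receptor chain, and the NK gene Ncr1, at 6.77 and 3.53 on 117, lay within the high range. Hba-a1, a haemoglobin chain, was near background at 3.05 to 3.50 on all 3.

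Against normal pre-B cells, the 3 Hoxa9-low leukemias differed widely although Hoxa9 was at the same level. This comparison shares the 3 low arrays with the one above. limma called 1291 of 12392 genes (10.4%), 701 higher (5.66%) and 590 lower (4.76%), and 364 (2.94%) and 362 (2.92%) of them by at least 2-fold. Without 116, 802 were called, within the first run (4 normal arrays) 804, and with a covariate for the mean of the myeloid markers 739.

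The largest separated rises were in Adgrg3, Asns, Tanc1, Insm1, Lhx2 and St3gal6. Adgrg3, an adhesion G-protein-coupled receptor, was at 10.18, 10.19 and 8.93 on 116, 117 and 154 against 4.21 to 6.28 on the normal arrays, and rose by 4.59 (SE 0.39, limma adjusted p = 2.18e-05). Asns, which makes asparagine, was at 10.24, 9.25 and 10.66 against 5.37 to 7.51, and rose by 3.43 (SE 0.42, limma adjusted p = 0.000255). St3gal6, a sialyltransferase, was at 12.01, 11.84 and 11.13 against 8.24 to 9.20, a rise of 2.99 (SE 0.22, limma adjusted p = 6.12e-06).

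For Lhx2 and Insm1 the rise was carried by 116 and 117. Array 154 exceeded the highest normal array only narrowly, at 4.68 against 4.53 for Lhx2 and 4.65 against 4.57 for Insm1, and both normal medians were near background. Without 116 the Insm1 call was lost (2.08, limma adjusted p = 0.0517), and within the first run both calls were (3.12, limma adjusted p = 0.0804 for Lhx2, and 3.15, 0.104 for Insm1). The scaffold gene Tanc1 rose by 3.19 (SE 0.46) on all 3 arrays.

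The largest separated falls were in Prg3, Mgst1, Reln, Ly6d, Lcn2 and Zdhhc14. Ly6d, a surface protein that marks B-lineage commitment, was at 6.14, 7.50 and 7.52 against 10.52 to 12.03, and fell by 4.38 (SE 0.34, limma adjusted p = 9.33e-06). Reln, a secreted glycoprotein best known from the brain, was at 4.12, 3.59 and 4.78 against 8.53 to 9.81, with a difference of -4.95 (SE 0.34) whose size is not resolved, since the low mean of 4.16 is near background. Zdhhc14, a palmitoyl transferase, fell by 4.23 (SE 0.30), from a normal median of 10.59 to 7.24, 5.41 and 6.37.

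Prg3 is an eosinophil granule protein, Lcn2 a neutrophil granule protein and Mgst1 a glutathione transferase, and their differences were -5.58, -4.29 and -4.99. The low mean of Prg3, 2.80, is near background, so the size of its fall is not resolved. Of 20 myeloid markers 11 fell and 0 rose, beside 4.76% and 5.66% of all genes. The list mean was 7.08 to 8.83 on the normal arrays, against 6.97, 7.41 and 4.95 on 116, 117 and 154. With that mean as a covariate the Lcn2 difference was -2.94 and no longer called (limma adjusted p = 0.0574). Among probe sets that match 1 transcript, the Mgst1 difference was -0.48 (limma adjusted p = 0.404), but that probe set was near background in both groups, at 3.62 and 4.10 on average, and bears little on the size of the fall.

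**Figure D5:**
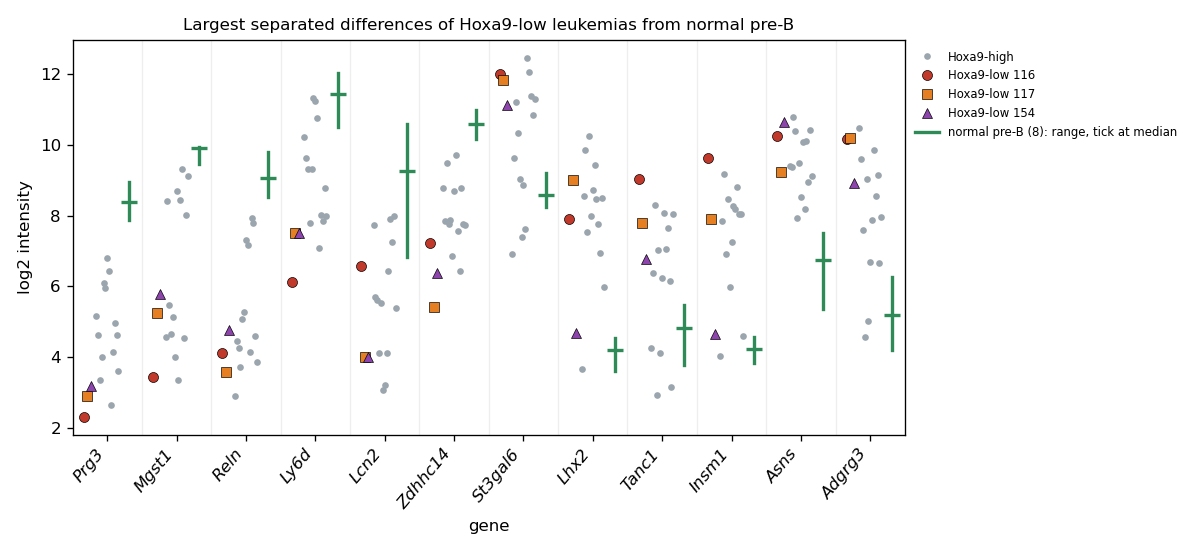
Log2 intensity (y axis) of the 12 named genes with the largest separated differences between Hoxa9-low leukemias and normal pre-B cells (x axis, ordered by the difference), with outlined symbols for the 3 low arrays, grey points for the 13 Hoxa9-high arrays and a green line for the range of 8 normal arrays with a tick at the median. Lhx2 and Insm1 on array 154, at 4.68 and 4.65, lie just above the normal range.

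Of the preset genes, several differed from normal cells in the Hoxa9-low leukemias. Those named as called here were called in the Hoxa9-high leukemias too. The preset Vpreb1 and Igll1 were called in the low set only, but their rises were of similar size in both sets. They were 1.19 and 1.15 in the low set. In the high set they were 1.01 (SE 0.37) and 0.99 (SE 0.47), with limma adjusted p = 0.0714 and 0.18. Leukemia 122 was lowest of the high arrays in both genes, at 9.16 and 6.66. Myc was at 10.87, 10.83 and 10.28 against 6.77 to 8.83 in normal cells and rose by 2.85 (SE 0.39, limma adjusted p = 0.000588). Ptpn22, a phosphatase acting as a brake on antigen receptors, was at 8.15, 8.36 and 8.18 against 5.19 to 5.68 and rose by 2.84 (SE 0.21, limma adjusted p = 6.15e-06). Cdk6 rose by 2.46 (SE 0.49, limma adjusted p = 0.0064), a call lost within the first run (2.07, limma adjusted p = 0.0581), and Tmprss4 by 1.95 (SE 0.32, limma adjusted p = 0.00219), with a normal mean of 3.26 near background.

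The Hoxa9-high leukemias, set against the same 8 normal arrays, had 1889 genes called (15.2%). That count rests on 13 arrays and cannot be compared with the count from the 3 low arrays. Differences of the high set were 2.70 for Myc, 3.70 for Ptpn22, 1.54 for Cdk6, 4.07 for Tmprss4, 1.60 for Cdkn2a and -1.73 for Kmt2a, all called. Among the largest rises of the low set, Adgrg3, Asns, Insm1 and Lhx2 were called in the high set as well, at 2.76, 2.83, 3.15 and 3.88, while St3gal6 and Tanc1, at 1.26 and 1.43, were not (limma adjusted p = 0.185 and 0.15). The largest falls of the low set, Prg3, Mgst1, Reln, Ly6d, Lcn2 and Zdhhc14, were all called in the high set too. Their differences there were -3.57, -3.36, -3.85, -2.25, -3.46 and -2.46. None of the genes in this paragraph was called between the low and high sets, although Zdhhc14 was with all arrays in 1 fit.

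Cdkn2a rose by 3.78 (SE 0.82, limma adjusted p = 0.011), with 154 at 4.55 inside the normal range of 3.90 to 4.83 and a normal mean of 4.15 near background, and the call was lost without 116 (3.19, limma adjusted p = 0.0643). Kmt2a fell by 1.13 (SE 0.15, limma adjusted p = 0.000398), with the low arrays at 9.92 to 10.26 against 10.99 to 11.54, and this call was lost with all arrays in 1 fit (limma adjusted p = 0.23). Hoxa10, Hoxa5 and Meis1 were not called, with differences of 0.18, -0.12 and 0.19 and SEs of 0.42, 0.54 and 0.28. Of the 9 Hoxa cluster genes 0 were called, beside 10.4% of all genes, and 9 genes are too few to be set apart from that share.

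The counts by list were taken for the low set only, so whether the Hoxa9-high leukemias share them was not tested. They stand beside 5.66% of all genes called higher and 4.76% called lower. In these terms 12 of 24 ribosome biogenesis and Myc genes rose and 2 fell, with a median of 0.72 beside -0.02 over all genes. Nolc1, a nucleolar protein, rose by 1.51 (SE 0.17). Of 26 amino acid synthesis genes 7 rose and 0 fell (median 0.49), and of 16 glycolysis genes 6 rose and 0 fell (median 0.61), among them the glucose transporter Slc2a3 by 1.29 (SE 0.17). Of 20 B-cell receptor and surface genes 8 fell and 0 rose (median -0.60), including Cd72, a B-cell coreceptor, which fell by 2.16 (SE 0.34), and Fcrla, an intracellular Fc receptor-like protein, which fell by 3.93 (SE 0.63).

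Beside the same shares over all genes, 5.66% higher and 4.76% lower, 6 of 18 B-lineage transcription factors fell. Of 20 homing and adhesion genes 7 fell and 2 rose, and of 18 immediate early and stress genes 6 fell. Early B genes went both ways: of 16 measured 3 rose and 6 fell. Vpreb1 rose by 1.19 (SE 0.19, limma adjusted p = 0.00181) and Rag1 fell by 1.62 (SE 0.28, limma adjusted p = 0.0032), but with all arrays in 1 fit both calls were lost (limma adjusted p = 0.273 and 0.149). Dntt had a difference of -3.04 (SE 0.93, limma adjusted p = 0.0572). Without 117, where Dntt was at 10.32, it was -4.84 (limma adjusted p = 9.11e-05).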

How the data were processed

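Per the submitters' processing notes, the authors summarised the arrays with RMA, with no version given, and deposited 1 linear intensity per probe set and array. Labels state Trizol extraction and NuGEN Ovation amplification of 20 ng RNA. The number of arrays per set limits the precision.

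Values were taken to log2 with no offset. Of 22690 probe sets, 64 controls, 691 with several symbols and 1555 with none were left out, and some listed genes were not analysed here. The other 20380 represent 12393 genes, with the brightest probe set over 39 arrays standing for a gene. Hoxa9 was left out of all tests.

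Groups were compared with limma 3.58.1 in R 4.3.3 (lmFit, eBayes with an intensity trend), a gene being called where the Benjamini-Hochberg adjusted p was under 0.05. The fit of 3 against 13 arrays was tested on simulated data. Low against high used 16 arrays, low against normal pre-B 11. Members and gene lists were chosen with earlier results of these data known. Named genes were up to 10 (against normal, 6) per direction with the largest difference among called genes whose arrays do not overlap. Where under 4 genes were called, uncalled separated genes above background were used. List members, a preset list, genes called under an alternative and genes of single arrays were added. Alternatives covered normalization, probe set choice, dim genes, the fit, run, pIpC, myeloid markers and each array left out.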

Additional observations from a re-analysis of the deposited data

Results flagged for a closer look

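Of 25 sets of arrays checked for a single array far from the rest, 1 stood out, where chance gives about 1 in 20. Meis1 on normal pre-B array 7 was at 3.92, above the 2.86 to 3.30 of the other normal pre-B arrays and still near background.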

How the results depend on the processing

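Low against high gave 0 calls under quantile normalization, with dim genes left out, with the mean of probe sets, with unique probe sets, without the intensity trend, with a robust fit, with the run or the myeloid mean as a covariate and without pIpC leukemias. It gave 43 with all arrays in 1 fit, 1 within run 1, 5 without 122 and 226, 6 without 15, 122 and 226, and 16 for 116 and 117 against the high arrays of run 1, the last 3 settings being chosen after seeing the data. With single arrays left out it gave 0 to 19, with 19 without 154, 6 without 122, 1 without 117 and 0 without any other array. Against normal pre-B the count was 804 within run 1, 739 with the myeloid mean as a covariate and 802 (without 116) to 1369 (without 117) with single arrays left out, and 987 to 1518 under the other settings. In both comparisons the cause of these shifts was not tested, beyond the smaller number of arrays where some are left out. The run is not in the labels, and all low arrays lie in run 1. No paired analysis was possible because the low, high and normal arrays share no replicate numbers that pair them.

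All named genes whose direction turned in low against high were uncalled there. Values under the alternatives were -0.04 (mean of probe sets), -0.25 (unique probe sets) and -0.01 (myeloid covariate) for Igll1, -0.02 (myeloid covariate) for Ebf1, -0.03 for Kmt2a and 0.08 for Uqcrc1 within run 1 and with a run covariate, -0.10 for Myc and 0.51 for Rag1 without pIpC leukemias, and -0.04 for Kmt2a and 0.62 for Lhx2 with 116 and 117 against run 1. Without 122 and 226 Ebf1, Igll1, Insm1 and Vpreb1 were at -0.13, -0.25, -0.38 and -0.15, and without 15 too at -0.14, -0.23, -0.38 and -0.13. Against normal pre-B, Egr1, Hoxa10 and Irx1 were at -0.35, -0.09 and -0.10 within run 1 and with a run covariate, Meis1 at -0.21 with the myeloid covariate, and the called Igll1 at -0.74 with unique probe sets. With single arrays left out, the low-minus-high difference ranged as follows: Bcl2l1 -1.21 to 0.05, Cox6a2 -0.02 to 1.82, Dntt -2.04 to 0.76, Ebf1 -0.14 to 0.26, Fcrla -2.14 to 0.14, Flt3 -1.30 to 2.0, Hoxb5 -0.37 to 1.12, Igll1 -0.20 to 0.28, Insm1 -1.08 to 1.42, Irf4 -1.37 to 0.01, Lhx2 -1.68 to 0.49, Mki67 -0.31 to 0.02, Myc -0.01 to 0.33, Nupr1 -0.78 to 3.32, Oas1a -0.34 to 2.32, Oasl2 -0.63 to 1.77, Rag1 -0.37 to 0.45, Sparc -1.07 to 2.66, Tlr7 -0.85 to 2.09, Vpreb1 -0.12 to 0.24. Against normal pre-B it ranged as follows: Bcl2 -0.02 to 1.37, Egr1 -0.34 to 0.58, Hoxa10 -0.06 to 0.51, Hoxa5 -0.54 to 0.39, Irx1 -0.01 to 0.08, Meis1 -0.25 to 0.44.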
